A study of Mus musculus and Rattus norvegicus with 30 samples.

Results

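Heat shock proteins are chaperones that bind unfolded or damaged proteins and help them refold or be removed. The 10 genes described here were taken by their gene symbols: the small heat shock proteins Hspb1, Hspb6, Hspb8 and Cryab, the Hsp70 proteins Hspa1a, Hspa1b and Hspa8, the Hsp110 protein Hsph1, the cytosolic Hsp90 protein Hsp90aa1 and the Hsp40 protein Dnajb1. All 10 were found among the 54315 features of the mouse count table. By symbol, 9 were found among the 39281 features of the rat table, and 4 of those had a count in rat.

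Each library held RNA of whole dorsal root ganglia (DRG), where the cell bodies of sensory neurons lie with their satellite glia and Schwann cells. Adult BALB/c and B10.D2 mice of both sexes, bought at 4 to 8 weeks of age, had spared nerve injury (SNI), in which 2 sciatic branches, the common peroneal and the sural, were cut while the tibial branch was left intact, or sham surgery in which the nerve was exposed. L3 and L4 DRG were taken 28 days later, with 1 animal per library. BALB/c mice gave 6 libraries after sham surgery and 4 after SNI, and B10.D2 mice gave 5 of each. Male Wistar rats had ligation and transection of the left L5 spinal nerve (SNT) or exposure of it (sham), and L5 DRG were taken 21 days later, with 3 animals pooled per library and 4 libraries per group. The animals carried no stated transgene, and the strains are separate inbred lines. After SNI, injured and uninjured neurons share the ganglia that were sampled, while SNT cuts the nerve of the whole L5 ganglion.

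Small heat shock proteins hold unfolded proteins in large oligomers, Hsp70 proteins refold them with the help of Hsp40 proteins such as Dnajb1 and of the nucleotide exchange factor Hsph1, and Hsp90 matures signalling proteins and receptors. Hspa8 is made in unstressed cells, and Hspa1a and Hspa1b are classical stress-induced genes, switched on by heat shock factor 1 at inverted repeats of the letters GAA. In sensory neurons Hspb1 is known for its part in survival after axotomy, and mutations of human HSPB1 and HSPB8 cause inherited neuropathies.

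Promoter sequences are shown because stress-induced chaperone genes are known targets of heat shock factor 1. In the RefSeq promoter table (GRCm38.p6, 250 bases before to 50 bases after the start), 7 of the 10 members had an entry. Cryab, Hspa8 and Hsp90aa1 did not match. The letters searched were GAANNTTC and TTCNNGAA, each of which is its own reverse complement, so both strands were covered; a longer 13-letter form holds overlapping copies of both. Of the 7 promoters, 5 held an 8-letter match, against 15.1% of all 32851 promoters, and 1 held a 13-letter match, against 0.603%. The matched letters are in capitals below, and positions count from 0 at the start site. Hspa1a (chr17:34972157-34972356, minus strand) and Hspa1b (chr17:34959239-34959438, minus strand) are shown over the 200 bases before the start, where they differed at 1 base and shared the match that begins at -104.
Hspa1a: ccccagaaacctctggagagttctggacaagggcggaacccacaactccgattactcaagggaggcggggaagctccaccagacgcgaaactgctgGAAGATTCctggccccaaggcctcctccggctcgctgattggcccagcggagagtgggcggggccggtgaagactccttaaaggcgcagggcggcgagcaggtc
Hspa1b: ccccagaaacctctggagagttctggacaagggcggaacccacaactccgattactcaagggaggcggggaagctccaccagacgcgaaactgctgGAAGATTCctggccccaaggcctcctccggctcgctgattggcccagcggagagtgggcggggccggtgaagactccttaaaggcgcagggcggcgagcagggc
Over the same stretch Hspb1 (chr5:135887719-135887918, plus strand) held 2 matches, at -117 and -97.
Hspb1: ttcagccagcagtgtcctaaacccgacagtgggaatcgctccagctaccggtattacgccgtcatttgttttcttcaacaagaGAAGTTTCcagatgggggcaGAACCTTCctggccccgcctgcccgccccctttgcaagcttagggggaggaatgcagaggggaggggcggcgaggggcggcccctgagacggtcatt
Hsph1 held the 13-letter match. It is shown as 30 bases at chr5:149636351-149636380 with the match at -33 and 30 bases at chr5:149636287-149636316 with overlapping matches at 36 and 41, both on the minus strand.
Hsph1 first site: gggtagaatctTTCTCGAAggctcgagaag
Hsph1 second site: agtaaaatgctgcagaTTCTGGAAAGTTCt
Hspb8 held a match at 2, and Hspb6 and Dnajb1 held none in this window. A match is a description of letters and not of binding.

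Library totals were 29989963 to 41881331 counts in mouse and 11954612 to 17887909 in rat. Levels are given in CPM, the count scaled to the library total after TMM normalization. The 8 sensory neuron markers summed to between 6884 and 8313 CPM in the mouse libraries. All of the 10 injury markers rose in BALB/c, 9 of 10 in B10.D2 and 6 of 7 tested in rat. Libraries of a group differed from each other beyond counting noise in all 53 pairs (chi-square per degree of freedom of 7.58 to 65.2). Some libraries stood apart. The 6 skeletal muscle markers summed to 1378 CPM in BALB/c sham library 50 and 547 CPM in BALB/c SNI library 49, against 9.18 to 98.0 CPM in the other 18 mouse libraries. On the first principal component of the rat libraries, sham library 4 and SNT library 1 took intermediate positions (-6.33 and 1.09, against -48.7 to -35.7 in the other sham and 30.6 to 49.9 in the other SNT libraries).

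Levels of the members in mouse DRG differed widely. Compared per kilobase of merged exon, Hspa8 stood at 453 ± 122 CPM per kb (SD, n = 20) and Hsp90aa1 at 361 ± 24.3 CPM per kb. These neighbours in the order overlapped, with Hspa8 above Hsp90aa1 in 12 of 20 libraries. In the counts assigned to each gene, the order of their means turned with strain. Hspa8 was still the higher in BALB/c library 55 (325 against 307 CPM per kb) and library 49 (329 against 295 CPM per kb). In BALB/c sham Hspa8 was at 344 ± 16.8 and Hsp90aa1 at 363 ± 31.4 CPM per kb (SD, n = 6). In B10.D2 sham they were at 592 ± 20.2 and 372 ± 6.25 CPM per kb (n = 5). The level of Hspa8 in BALB/c rests on how reads are assigned to its copies. In BALB/c sham it was 1480 ± 72.1 CPM, and 2174 ± 104 CPM with the features that share its sequence added. In CPM this sum stood above Hsp90aa1 in BALB/c sham (1429 ± 123 CPM), with merged exons of 4301 bases for Hspa8 and 3931 for Hsp90aa1. The order per kb was not computed for this sum, so the turn with strain is given only for the counts as assigned. Hspb8 followed at 144 ± 11.4 CPM per kb, Hspb1 at 97.4 ± 9.22 CPM per kb and Cryab, which encodes alphaB-crystallin, at 34.3 ± 5.73 CPM per kb. The co-chaperone Dnajb1 was at 19.0 ± 3.12 CPM per kb and Hsph1 at 14.5 ± 2.14 CPM per kb. The stress-induced pair was low, with Hspa1b at 3.56 ± 1.45 and Hspa1a at 2.01 ± 0.761 CPM per kb, and Hspb6 was lowest at 0.431 ± 0.168 CPM per kb. From Hsp90aa1 down, each member was above the next in all 20 libraries when divided by this length. The order of Dnajb1 and Hsph1 depends on the length used. In CPM, Hsph1 (median 105) stood above Dnajb1 (median 59.4). The merged exons of Hsph1 hold 7266 bases and its longest transcript 4764, against 3204 and 2996 for Dnajb1. The order was not computed with transcript lengths. Each level is a level of the deposited count, and reads that fit several copies can be lost from it: 56.5% of the 100-base windows of the Hspa1a transcript also occurred in transcripts of other genes, as did 49.9% for Hspa1b, 47.5% for Hsp90aa1, 42.7% for Hspb1, 32.1% for Hspa8, 15.0% for Cryab and 1.22% for Hspb6, and none did for Hspb8, Hsph1 and Dnajb1.

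**Figure D1:**
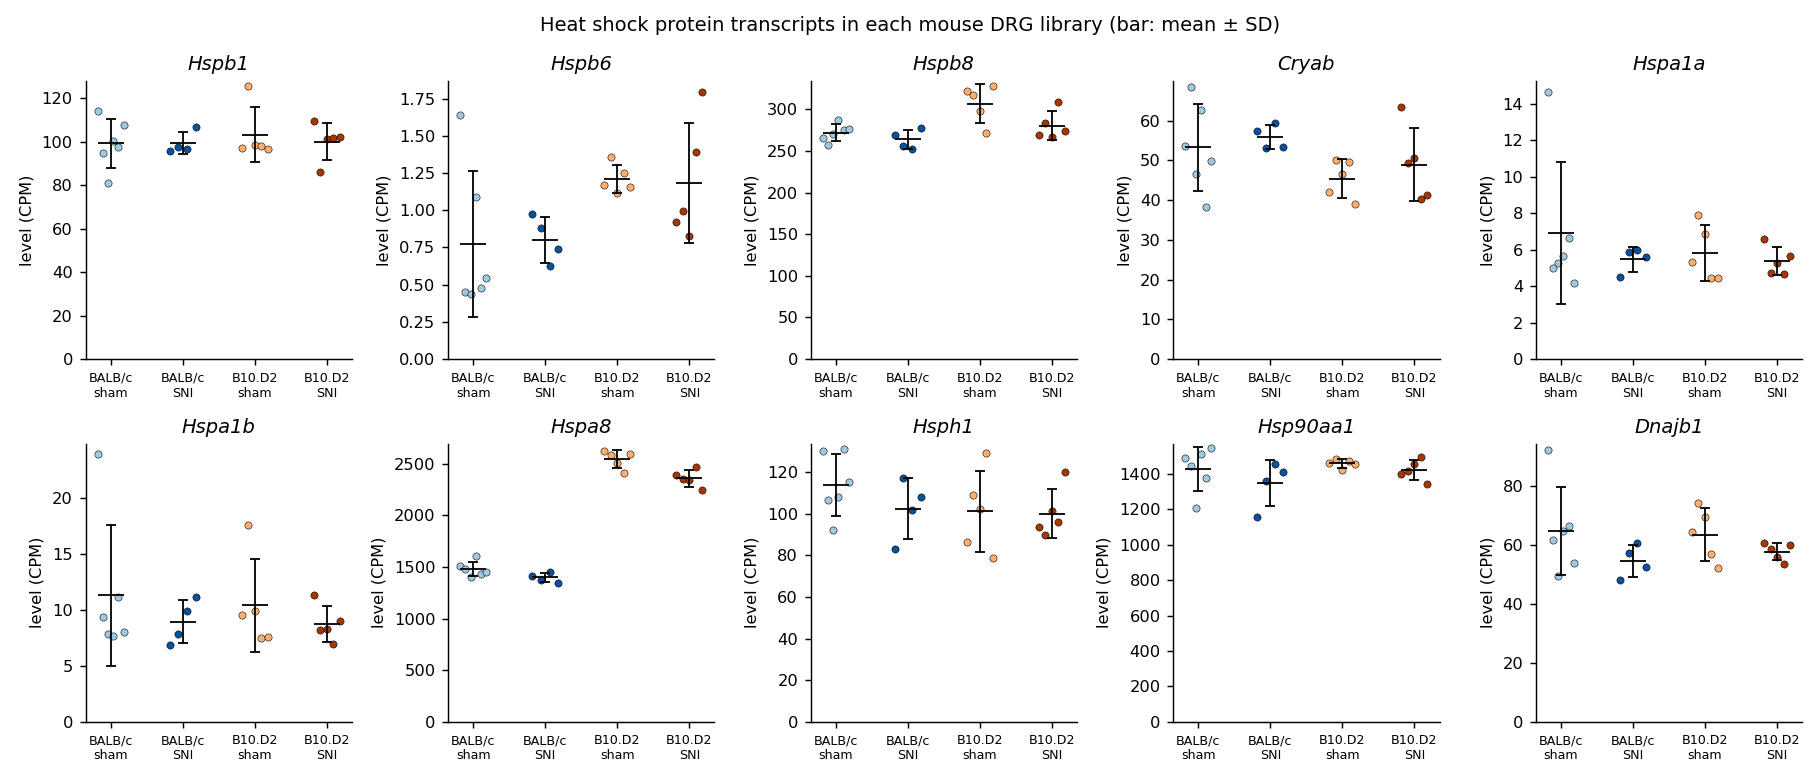
Level in CPM (y axis, from 0) of each member in each mouse library, by strain and surgery on the x axis; points are libraries and bars are mean ± SD (n = 6, 4, 5 and 5). Sham and SNI points overlap within each strain for all 10 members, Hspa8 separates the strains, and 1 BALB/c sham library, library 50, is highest of all for Hspa1a, Hspa1b and Dnajb1.

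The first question was whether the members changed 28 days after SNI. None of the 10 was called in either strain. In BALB/c, 0 of 10 passed an adjusted p of 0.05 by edgeR's quasi-likelihood test, where 9.69% of all 24685 features tested did; 0 had an unadjusted p under 0.05 (23.2% of all features), and DESeq2 called 0. In B10.D2, 0 of 10 passed, where 4.58% of all features did; 2 (Hspa8 and Hspb8) had an unadjusted p under 0.05 (16.8% of all features), and DESeq2 called 0. The median log2 fold change of the 10 was -0.08 in BALB/c and -0.06 in B10.D2, against 0.00327 and 0.00755 over all features. Since ganglia were sequenced whole, fewer cells of a type and less RNA per cell cannot be told apart in any of these values.

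Hspb1 lay between 80.8 and 114 CPM (median 98.9) in the BALB/c sham libraries. In the 4 BALB/c SNI libraries it was 95.8, 97.8, 96.9 and 107 CPM, so that every injured library fell inside the range of the sham libraries. The log2 fold change was 0.0047 (SE 0.080; 95% interval -0.16 to 0.17; adjusted p = 0.983 by edgeR). In B10.D2, the sham libraries held 97.0, 126, 98.5, 98.1 and 96.9 CPM and the SNI libraries 110, 86.0, 101, 102 and 102 CPM of Hspb1. Sham library 60 stood far above the other 4, which lay within 2 CPM of each other. The log2 fold change was -0.02 (SE 0.080; interval -0.19 to 0.14; adjusted p = 0.931). An assembled LncRNA on the opposite strand, LncRNA1163 (chr5:135887353-135889112, minus strand, mm10), shares 580 exonic bases with Hspb1 (chr5:135887919-135889563, plus strand). The libraries were strand-marked, but the strand setting of the counting is not given in the sources used here, so reads of the pair cannot be separated with certainty. The LncRNA held 27 to 63 counts per library, 0.647% to 1.66% of the Hspb1 count, and its log2 fold changes of 0.03 and -0.12 did not pass (adjusted p = 0.955 and 0.856 by edgeR).

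Of the other small heat shock proteins, Hspb8, which acts with the co-chaperone Bag3 in chaperone-assisted autophagy, had a log2 fold change of -0.05 in BALB/c (interval -0.15 to 0.06) and -0.12 in B10.D2 (interval -0.22 to -0.01; adjusted p = 0.215 by edgeR). Cryab ran from 38.2 to 68.5 CPM (median 51.9) in BALB/c sham and stood at 57.3, 53.1, 59.3 and 53.5 CPM after SNI. In B10.D2 it was at 42.1, 50.1, 46.7, 49.5 and 38.94 CPM in sham and 63.4, 49.2, 50.7, 40.2 and 41.4 CPM in SNI libraries. The groups overlapped in both strains, with B10.D2 SNI libraries 69 and 78 above the B10.D2 sham range, and the log2 fold changes were 0.06 (-0.21 to 0.34) and 0.09 (-0.18 to 0.37). Hspb6, at 0.434 to 1.79 CPM on 16 to 64 counts per library, had 0.08 (-0.57 to 0.73) and 0.0096 (-0.58 to 0.60). The intervals of Hspb1 and Hspb8 lie within 0.22 on the log2 scale in both strains, while that of Hspb6 leaves room for changes of over 0.5 either way.

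Among the Hsp70 and Hsp110 genes, Hspa8 was measured most precisely. Its BALB/c sham libraries ran from 1399 to 1605 CPM (median 1465), and the SNI libraries were at 1417, 1372, 1456 and 1350 CPM. In B10.D2 the sham libraries held 2623, 2582, 2513, 2407 and 2597 CPM and the SNI libraries 2388, 2357, 2341, 2467 and 2246 CPM. Injured libraries sat toward the lower end in both strains, but the groups overlapped. The log2 fold change was -0.08 in BALB/c (SE 0.043; adjusted p = 0.259 by edgeR) and -0.11 in B10.D2 (SE 0.042; adjusted p = 0.187). Hsph1, the nucleotide exchange factor of Hsp70, ran from 92.2 to 131 CPM (median 112) in BALB/c sham and was at 82.9, 117, 102 and 108 CPM after SNI. Its log2 fold change was -0.15 (interval -0.41 to 0.11) in BALB/c and -0.02 (-0.28 to 0.24) in B10.D2, on overlapping groups.

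Hspa1a was at 14.7 CPM in BALB/c sham library 50 and at 4.195 to 6.66 CPM in the other 5 sham libraries; the SNI libraries held 4.47, 5.89, 5.96 and 5.59 CPM. Hspa1b was at 23.9 CPM in library 50, 7.70 to 11.1 CPM in the other 5, and 6.87, 7.87, 9.93 and 11.1 CPM after SNI. A single sham library therefore lies far above both groups for both genes. Their log2 fold changes were -0.32 (SE 0.27) and -0.31 (SE 0.28; adjusted p = 0.528 and 0.570 by edgeR), and without library 50 they became 0.05 (adjusted p = 0.899) and 0.02 (adjusted p = 0.974). In B10.D2 the changes were -0.09 (interval -0.64 to 0.46) for Hspa1a and -0.18 (-0.77 to 0.41) for Hspa1b, and without sham library 60 they became 0.03 and 0.04.

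Hsp90aa1 ran from 1208 to 1545 CPM (median 1466) in BALB/c sham and was at 1160, 1363, 1457 and 1411 CPM after SNI. In B10.D2 it was at 1461, 1488, 1422, 1474 and 1459 CPM in sham and 1400, 1416, 1455, 1498 and 1345 CPM in SNI libraries. The groups overlapped in both strains. Hsp90aa1 had a log2 fold change of -0.08 in BALB/c (interval -0.22 to 0.05) and -0.03 in B10.D2 (-0.17 to 0.10). Dnajb1, which stimulates the ATPase of Hsp70, had -0.24 in BALB/c (SE 0.13, interval -0.51 to 0.03, adjusted p = 0.272 by edgeR). It was at 64.8 ± 15.0 CPM in BALB/c sham (n = 6) and 54.8 ± 5.49 CPM in BALB/c SNI (n = 4). Sham library 50 held 92.3 CPM of Dnajb1, and the other 5 had a mean of 59.3 CPM. When each library was left out, the BALB/c log2 fold change of Dnajb1 ran from -0.31 to -0.12. In B10.D2 Dnajb1 had -0.13 (-0.40 to 0.13). The difference between the strains in the injury change was called for 0 of 10 members (adjusted p of 1.0 for each by edgeR, 0 at an unadjusted p under 0.05 against 4.35% of all features, 0 by DESeq2), where 0.0243% of all features were called. Between male and female mice 0 of 10 were called, where 0.243% of features were; 0 had an unadjusted p under 0.05 (11.7% of all features) and DESeq2 called 0. The male over female log2 difference was 0.37 for Hspb6 (SE 0.21; adjusted p = 0.512 by edgeR), 0.25 for Hspa1b (SE 0.20; adjusted p = 0.682), 0.11 for Hspb1 (SE 0.056; adjusted p = 0.480) and between -0.07 and 0.08 for the other 7.

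**Figure D2:**
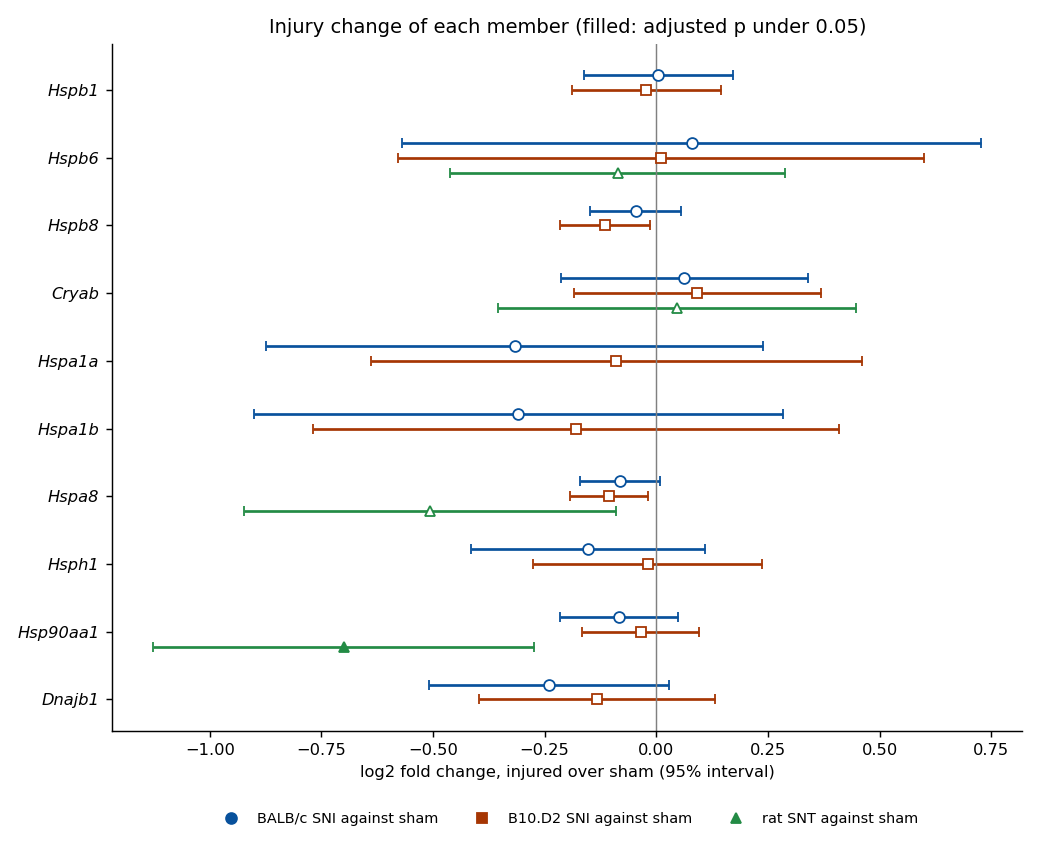
Log2 fold change of injured over sham (x axis) for each member (y axis) in BALB/c, B10.D2 and rat; bars are 95% intervals and filled symbols have an adjusted p under 0.05. The 20 mouse symbols are open, with intervals that are narrow for Hspb1, Hspb8, Hspa8 and Hsp90aa1 and wide for Hspb6, Hspa1a and Hspa1b; the filled symbol is Hsp90aa1 in rat at -0.70.

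Other chaperone genes did fall after SNI. Of 73 genes in 7 further chaperone lists, 69 were tested in mouse. In BALB/c 7 fell and 0 rose (4.87% of all features fell and 4.82% rose), and in B10.D2 4 fell and 0 rose (2.48% and 2.10%); the median log2 fold change was -0.03 and -0.06. The co-chaperone list of 19 genes held 3 of these in both strains. Fkbp4, an immunophilin of Hsp90 complexes, fell from 307 ± 18.4 to 261 ± 10.5 CPM in BALB/c (log2 fold change -0.23, adjusted p = 0.00112 by edgeR) and from 304 ± 12.02 to 261 ± 6.84 CPM in B10.D2 (-0.21, adjusted p = 0.00477). Stip1, which joins Hsp70 to Hsp90, fell by 0.16 in each strain on the log2 scale (adjusted p = 0.0181 and 0.0281), and Ahsa1, the activator of the Hsp90 ATPase, fell by 0.15 and 0.19 (adjusted p = 0.0439 and 0.0151). In the Hsp70 list of 11 genes, the divergent member Hspa12a fell in both strains (-0.19 and -0.15; adjusted p = 0.00332 and 0.0373) and Hspa4l in BALB/c (-0.20, adjusted p = 0.0243). Of 20 Hsp40 genes, Dnajc6, the neuronal auxilin, and Dnajb14 fell in BALB/c (-0.21 and -0.20; adjusted p = 0.00249 and 0.0143) and 0 in B10.D2. In B10.D2 the means of Hspa4l, Dnajc6 and Dnajb14 also went down, from 325 to 298, 277 to 251 and 199 to 185 CPM. In the strain by injury test by edgeR, 1 of the 69 genes had an unadjusted p under 0.05, against 4.35% of all features, and 0 of the 20 Hsp40 genes did. No gene of the small heat shock, Hsp90, chaperonin or heat shock factor lists was called in either strain by edgeR, with 3 at an unadjusted p under 0.05 in each strain. The 8 neuron markers, 1 of which (Snap25) fell in each strain, had a median log2 fold change of -0.11 in both. Of 6 macrophage markers 3 were called higher in BALB/c and 0 in B10.D2 (median log2 fold changes of 0.50 and 0.42). In each strain all 6 had a positive log2 fold change and 5 had an unadjusted p under 0.05 by edgeR. In the strain by injury test 0 of the 6 had an unadjusted p under 0.05. Of 6 satellite glia markers 2 and 1 were called higher (0.22 and -0.0031). The part of cell composition in the chaperone falls was not tested.

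The next question was whether the strains differed. In sham mice 2 of 10 members were called between B10.D2 and BALB/c, where 21.6% of all features were (3 had an unadjusted p under 0.05, against 31.6%), and in SNI mice 1 of 10, where 20.9% were (10.9% higher and 9.99% lower in B10.D2). Hspa8 was called in both: every B10.D2 library (2246 to 2623 CPM) lay above every BALB/c library (1350 to 1605 CPM). The log2 difference, B10.D2 over BALB/c, was 0.78 in sham (SE 0.040; 1.72-fold; adjusted p = 2.9e-12 by edgeR) and 0.76 in SNI (SE 0.045; 1.69-fold; adjusted p = 4.75e-11). The size of this difference rests on how reads are assigned to copies. Hspa8 (chr9:40800984-40810087, plus strand, mm10) shares 28.9% of its 100-base windows with the processed pseudogene Gm15459 (chr5:5781615-5783555, minus strand). Gm15459 held 659 to 744 CPM in BALB/c sham and 634 to 668 CPM in BALB/c SNI libraries, but 15.0 to 18.7 and 13.9 to 15.3 CPM in those of B10.D2. Its log2 difference between the strains was -5.38 in sham (adjusted p = 2.17e-23 by edgeR), opposite in sign to that of Hspa8. Of the counts of Hspa8 and Gm15459 together, the pseudogene held 31.8% ± 0.231 in BALB/c sham (SD, n = 6) and 31.7% ± 0.422 in BALB/c SNI (n = 4), and 0.646% ± 0.0558 and 0.610% ± 0.0372 in B10.D2.

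When the counts of the 7 features that share sequence with Hspa8 were added to it, a setting chosen after seeing the data, the sum was 2174 ± 104 CPM in BALB/c sham and 2564 ± 87.8 CPM in B10.D2 sham. The lowest B10.D2 library then stood at 2425 CPM and the highest BALB/c library at 2352 CPM. The log2 difference fell to 0.24 (SE 0.040; 1.18-fold, interval 1.11 to 1.25; adjusted p = 0.000123 by edgeR) in sham and 0.21 (1.16-fold, interval 1.09 to 1.24; adjusted p = 0.00116) in SNI. Hspa8 thus kept its direction and its call in both settings, with a smaller log2 difference in the sum. Transcription of Gm15459 itself and Hspa8 reads placed on Gm15459 cannot be told apart in these counts. The injury change was nearly untouched by the sum (-0.08 in BALB/c and -0.11 in B10.D2).

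**Figure D3:**
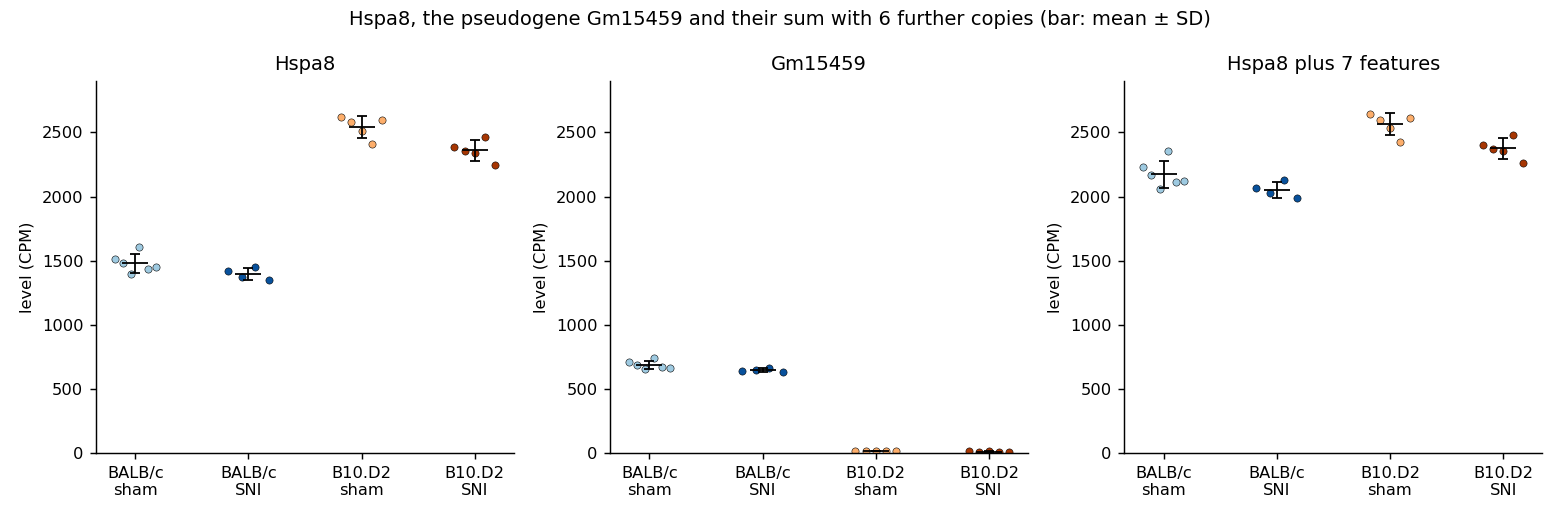
Level in CPM (y axis, same scale from 0 in each panel) of Hspa8, of Gm15459 and of Hspa8 summed with the 7 features that share its sequence, by strain and surgery on the x axis; points are mouse libraries and bars mean ± SD. Hspa8 is higher and Gm15459 lower in every B10.D2 library, and the sums lie much closer together, at 2174 CPM in BALB/c sham and 2564 CPM in B10.D2 sham.

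Hspb8 was the second member called in sham mice, at 258 to 287 CPM (median 273) in BALB/c and 322, 317, 298, 271 and 328 CPM in B10.D2. All but 1 of the 5 B10.D2 libraries lay above all BALB/c libraries, and the log2 difference was 0.16 (SE 0.046; interval 0.07 to 0.26; adjusted p = 0.0125 by edgeR). It stayed called without any single library (adjusted p of 0.00279 to 0.0397 over all alternatives). In SNI mice it was 0.10 (interval -0.01 to 0.20; adjusted p = 0.212), and the strain by injury test did not separate these values (adjusted p of 1.0). Hspb6 was at 0.434 to 1.64 CPM in BALB/c sham and 1.11 to 1.36 CPM in B10.D2 sham, a log2 difference of 0.64 (SE 0.28; adjusted p = 0.119 by edgeR). Without BALB/c sham library 50 it was 0.97 and called (adjusted p = 0.00807), and without library 56 it was 0.83 and called (adjusted p = 0.0413). In SNI mice Hspb6 had 0.57 (SE 0.31; adjusted p = 0.224). Cryab had -0.23 in sham (adjusted p = 0.226) and -0.20 in SNI (adjusted p = 0.355), and in sham without BALB/c sham library 57 it was -0.31 and called (adjusted p = 0.0455). Smooth and skeletal muscle markers, cell types in which Hspb6 and Cryab are also strongly made, moved between the sham groups: 5 of 6 smooth muscle and 4 of 6 skeletal muscle markers were lower in B10.D2, with sums of 234.3 to 292 against 247 to 376 CPM and of 9.18 to 23.4 against 9.999 to 1378 CPM. All 12 markers were present in both strains. Cryab had the sign of most of these markers (-0.23 in sham), and Hspb6 had the opposite sign (0.64 in sham). The part of muscle in these differences was not tested. The other members were not called between the strains by edgeR. In sham, Hspa1a had -0.25, Hsph1 -0.17, Hspa1b -0.13, Hspb1 0.05, Hsp90aa1 0.03 and Dnajb1 -0.03 (adjusted p of 0.356 to 0.906). In SNI, Hsp90aa1 and Dnajb1 had 0.08, Hsph1 -0.04, Hspa1a -0.03, Hspb1 0.02 and Hspa1b -0.0052 (adjusted p of 0.457 to 0.993). Of the 69 tested genes of the further lists, 3 were higher and 4 lower in B10.D2 sham, and 1 was higher and 3 lower in SNI, smaller shares than the 21.6% and 20.9% over all features. Among them Hspe1, the mitochondrial co-chaperonin, was higher in B10.D2 in sham and SNI (0.25 and 0.26; adjusted p = 0.00121 and 0.0024 by edgeR), and Hsp90ab1 was lower in sham (-0.23, adjusted p = 0.0341).

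Hspa1a, Hspa1b and Dnajb1 varied together from mouse to mouse. After the mean of each of the 8 cells of strain, surgery and sex was subtracted, 38 of 45 pairs of members had a positive Pearson correlation of log2(CPM + 1) over the 20 libraries (median 0.31), and 3 pairs passed after Benjamini-Hochberg adjustment over the 45 pairs. These 3 pairs joined Hspa1a, Hspa1b and Dnajb1. The median over pairs of all features was not computed. Hspa1a and Hspa1b had r = 0.945 and rho = 0.937 (permutation p = 0.00019 and 0.00031; adjusted p = 0.00435 and 0.0101), and 0.920 without the 2 libraries farthest from the median of Hspa1a. Hspa1a and Dnajb1 had r = 0.905 and rho = 0.902 (permutation p = 0.00027 and 0.00045; adjusted p = 0.00435 and 0.0101), and 0.813 without the 2 farthest. Hspa1b and Dnajb1 had r = 0.885 and rho = 0.830 (permutation p = 0.00029 and 0.00239; adjusted p = 0.00435 and 0.0358), and 0.788 without the 2 libraries farthest in Hspa1b. Without library 50, and with the cell means taken anew, the 3 values were 0.923, 0.828 and 0.778. In each value without the 2 farthest libraries, here and below, the cell means were not taken anew. The libraries left out therefore still act on those values through the means of their cells. Hspa1a and Hspa1b share sequence, so reads could be split between them, while Dnajb1 shares no 100-base window with another gene. Hspb1 and Hsph1 had r = 0.683 and rho = 0.698 (permutation p = 0.00669 and 0.00406; adjusted p = 0.0753 and 0.0457), and 0.632 without the 2 libraries farthest in Hspb1. Hspb1 and Hspa1a had r = 0.580 and rho = 0.711 (permutation p = 0.0186 and 0.00546; adjusted p = 0.152 and 0.0491), and 0.530 without these 2. Both pairs passed by rho and not by r.

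**Figure D4:**
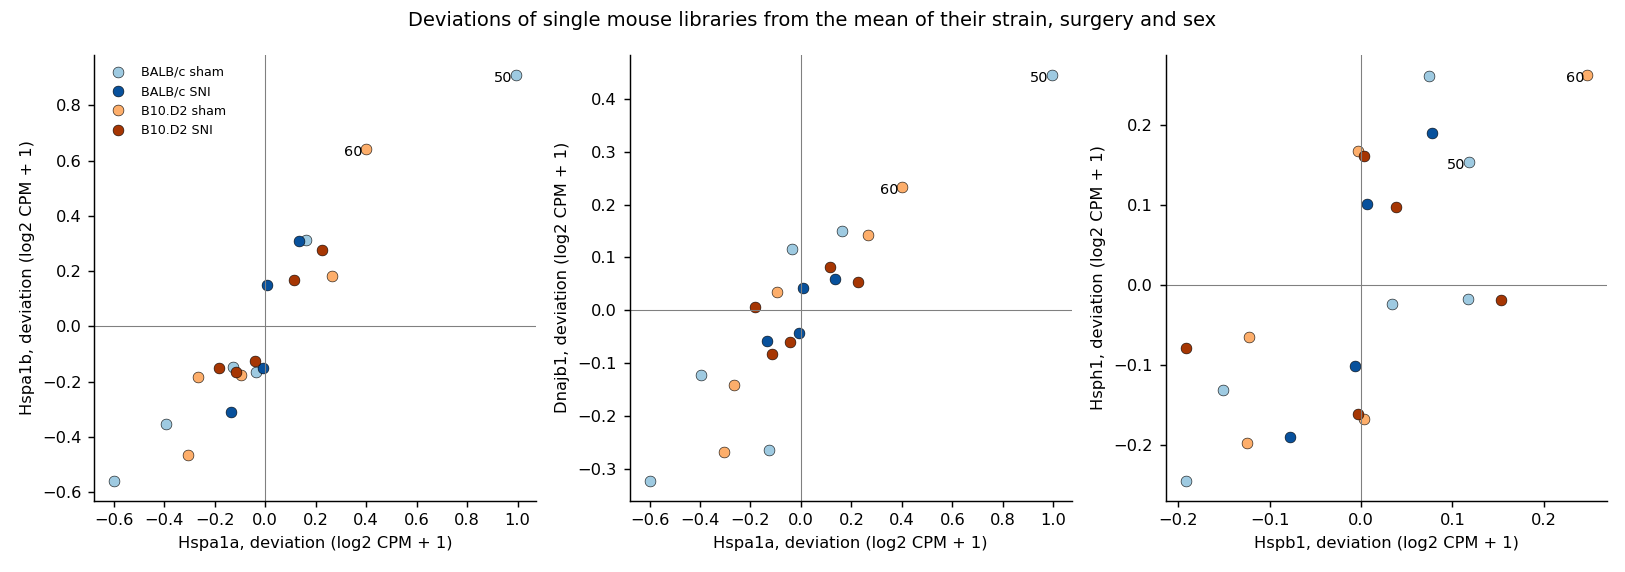
Deviation of each mouse library from the mean of its strain, surgery and sex on the log2(CPM + 1) scale for Hspa1a against Hspa1b, Hspa1a against Dnajb1, and Hspb1 against Hsph1; points are libraries coloured by group. Library 50 (BALB/c sham) is at the far upper right of the first pair of panels, and the remaining libraries rise along the same line (r of 0.923 and 0.828 without it).

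Library 50 was measured against the other 5 BALB/c sham libraries. Hspa1a, Hspa1b and Dnajb1 were 2.74, 2.72 and 1.56 times their mean and were highest there of all 20 mouse libraries. Hspb6 was 2.74 times their mean Hspb1 1.19 times and Hsph1 1.18 times, while Hspb8, Cryab, Hspa8 and Hsp90aa1 lay between 0.973 and 1.05 times. All 6 skeletal muscle markers were 18.5 to 46.1 times the mean of the others, and 2 of 8 immediate early genes (Ier2 and Zfp36) were above all 5 others. B10.D2 sham library 60, with Hspa1b at 17.6 CPM against 7.48 to 9.92 CPM in the other 4 sham libraries, had skeletal muscle markers at 23.4 CPM in sum, and BALB/c SNI library 49, at 547 CPM, had the lowest Hspa1b of its group (6.87 CPM). The part of muscle tissue in the values of library 50 was not tested.

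As a description, the features whose deviations were most like those of Hspb1 over the 20 libraries were Nup50 (r = 0.930), Akap2 (r = 0.905), ENSMUSG00000104765 (r = 0.838), Ppp1r14b (r = 0.833) and ENSMUSG00000103130 (r = 0.823). Those most like Hsph1 were Trip11 (r = 0.912), Sh2b1 (r = 0.889), Ripor1 (r = 0.879), Kdm2a (r = 0.864) and Rbm27 (r = 0.856). Without subtraction of the cell means, those nearest to Hspb1 were ENSMUSG00000098943 (r = 0.763), ENSMUSG00000083744 (r = 0.726), Rsad1 (r = 0.720), ENSMUSG00000081378 (r = 0.711) and LncRNA613 (r = 0.692), and those nearest to Hsph1 were Trip11 (r = 0.831), Naa15 (r = 0.828), Smarcc1 (r = 0.820), Mapre3 (r = 0.811) and Pcbp1 (r = 0.801). No other member was in these lists of 5, which are the extremes of 24685 features and share library and depth.

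In rat, Hspb1, Hspb8, Hsph1, Dnajb1 and both identifiers of Hspa1a were listed at 0 in all 8 libraries, and no row carried the symbol Hspa1b. The same table listed Actb, Tubb3, Uchl1 and Mbp at 0, genes that every cell or every DRG uses, and 43.4% of its features had no count in any library. A value of 0 there is reported only as listed at 0, and no fold change was formed. The 4 members with counts were Hsp90aa1, Hspa8, Cryab and Hspb6.

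Hsp90aa1 was at 359, 290, 252 and 210 CPM in the sham libraries 1 to 4 and at 221, 139, 149 and 175 CPM in the SNT libraries. The SNT libraries were lower except that SNT library 1 lay above sham library 4, the pair that was also intermediate over all features. The log2 fold change was -0.70 (SE 0.19; interval -1.13 to -0.27; adjusted p = 0.0256 by edgeR), and Hsp90aa1 was the 1 of 4 tested members called in rat, where 27.4% of all 13690 features were called; 2 had an unadjusted p under 0.05 (42.5% of all features), and DESeq2 called 2. It lost the call without any of sham libraries 1, 2 and 3 and SNT libraries 2, 3 and 4 (log2 fold changes of -0.74 to -0.53, adjusted p of 0.0543 to 0.0784). Hspa8 was at 2821, 3726, 3030 and 3085 CPM in sham and 2860, 1752, 1853 and 2446 CPM in SNT, with SNT library 1 above sham library 1. Its log2 fold change was -0.51 (SE 0.19; adjusted p = 0.0683 by edgeR); it was -0.51 and called by DESeq2 (adjusted p = 0.0216), and -0.65 and called without SNT library 1 (adjusted p = 0.0187). Without both intermediate libraries, a setting chosen after seeing the data, both genes were called. Cryab had 0.05 (interval -0.36 to 0.45) and Hspb6 -0.09 (-0.46 to 0.29), with overlapping groups.

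**Figure D5:**
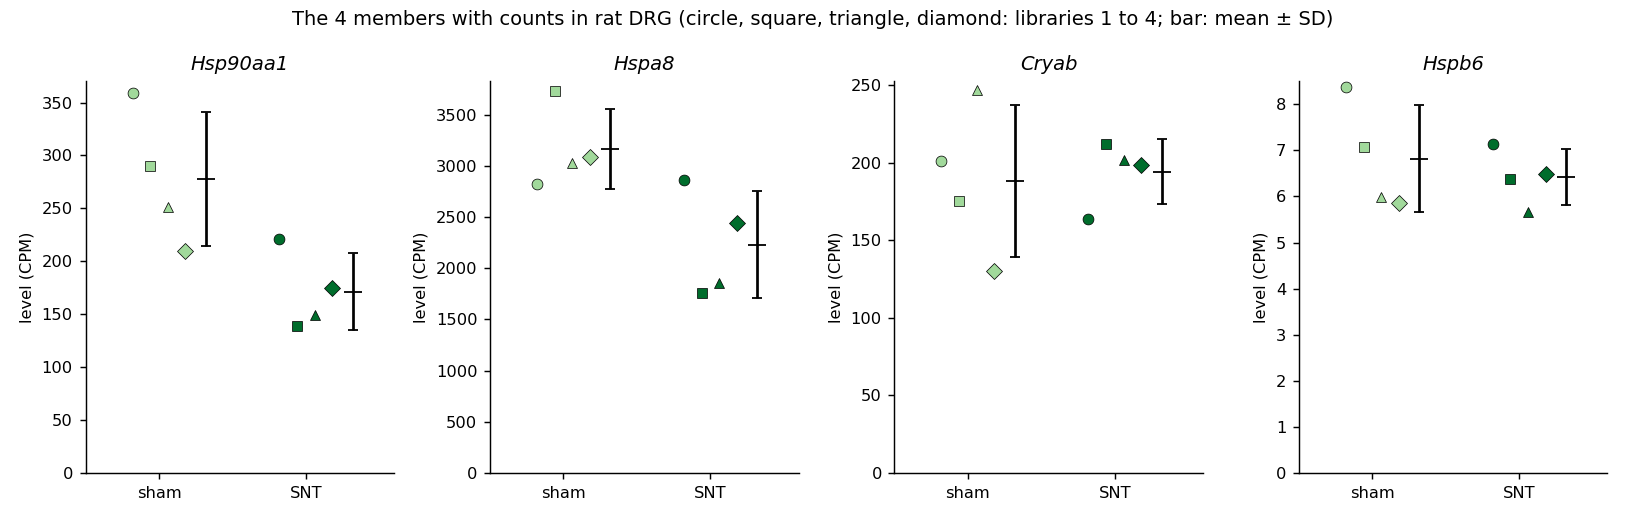
Level in CPM (y axis, from 0) of the 4 members with counts in the rat libraries, sham and SNT on the x axis; circle, square, triangle and diamond are libraries 1 to 4 of each group and bars are mean ± SD (n = 4). Hsp90aa1 and Hspa8 are lower in most SNT libraries, with SNT library 1 among the sham values, and Cryab and Hspb6 overlap.

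Other chaperones of the rat table fell with Hsp90aa1. Of the 73 genes in the further lists, 43 were tested, 15 fell and 3 rose (15.1% of all features fell and 12.3% rose), and the median log2 fold change was -0.25 against 0.00266 over all features. Of 11 co-chaperones tested 6 fell, among them Fkbp4 (740 ± 128 to 405 ± 133 CPM; -0.87, adjusted p = 0.0202 by edgeR), Ahsa1 (-0.70, adjusted p = 0.0179) and Stip1 (-0.69, adjusted p = 0.0241), the genes that also fell in both mouse strains. Of 13 Hsp40 genes tested 6 fell, with Dnaja4 at -0.66 and Dnajb4 at -0.64, and Dnajb5 rose by 0.57 (adjusted p = 0.021, 0.0183 and 0.0148). Hspa2 rose by 1.10 (118 ± 14.1 to 254 ± 65.8 CPM; adjusted p = 0.0106 by edgeR) and Hspa4l fell by 0.57 (adjusted p = 0.0308). Hspb7, a small heat shock protein of heart and muscle, rose by 1.14 from 1.13 ± 0.307 to 2.49 ± 0.504 CPM (adjusted p = 0.0152), Hspb11 fell by 0.42 (adjusted p = 0.037), and Hspe1 fell by 0.68 (adjusted p = 0.0327). No gene of the Hsp90 list (2 tested) or heat shock factor list (1 tested) was called by edgeR, with 0 at an unadjusted p under 0.05. Calls in rat depended on single libraries. Over all features 3753 were called, against 1483 without sham library 3 and 5041 without SNT library 1. Whether these chaperones kept their calls without each library is not given here. Of the 7 neuron markers found in the table, 4 had counts. Of these 4, 3 were called lower (Scn10a -2.22, Avil -1.42 and Isl1 -1.09), where 15.1% of all features fell. The other, Prph, had a positive log2 fold change and was not called. The summed level of the 4 was 5115 to 7625 CPM in sham and 3721 to 6584 CPM in SNT. Of the 3 Schwann cell and 3 macrophage markers tested, 2 and 1 rose. All 3 skeletal muscle markers tested had a positive log2 fold change (median 0.93) and 0 were called. Their summed level was 19.4 to 109 CPM in sham and 20.5 to 169 CPM in SNT. The part of cell composition in the chaperone values, and that of muscle in the value of Hspb7, was not tested.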

How the data were processed

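The counts used here came from 20 mouse and 8 rat DRG libraries, sequenced as strand-marked pairs of 100-base reads. RNA was ribodepleted in mouse and poly-A selected in rat. Per the study's methods, the authors aligned reads with STAR to mm10 or rn6, merged lanes and counted features with HTSeq (intersection-nonempty). They deposited raw counts, used here, and DESeq2 tables whose log2 fold changes and p-values are their own comparisons; only the symbol column was used. Tool versions are not given in the sources used here. B10.D2 sham 59 and BALB/c SNI 66 have labels and were not analysed here. The paper states that both were sequenced and then excluded for poorer read mapping and a higher Cook's distance.

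The counts were tested with edgeR 4.0.16 in R 4.3.3 (quasi-likelihood F test, two-sided, TMM factors, filterByExpr). The mouse model held strain by surgery group and sex, the rat model surgery. P-values were adjusted with Benjamini-Hochberg over all features tested, and a feature under 0.05 is called. CPM is the count divided by library total times TMM factor. Intervals of 95% come from the fitted SE. The models were run on simulated counts that had the same spread for every feature and no libraries standing apart, unlike these data. Correlations used 100000 permutations within cells of strain, surgery and sex. Positions and exon lengths are from GENCODE on mm10. Animals are the replicates in mouse; rat p-values measure the spread between pools.

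The members and lists were chosen with earlier results of these data known. Every tested member is named in the injury and strain comparisons, and all are counted in the strain by injury and sex tests. Each further list is given as counts, with up to 3 called genes of largest change per injury comparison. These had a mean of at least 1 CPM. Of the strain differences, Hspe1 and Hsp90ab1 were named after their values were seen, as were single cell type markers. Alternatives were DESeq2 1.42.0, RLE factors, 2 other filters, Hspa1a and Hspa1b summed, no sex term, each strain alone, a rat block and each library left out; 2 were chosen after seeing the data.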

Additional observations from a re-analysis of the deposited data

Results flagged for a closer look

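Over the 48 combinations of member and group with counts, 4 held a library far from the rest by Dixon's criterion, which chance meets in about 1 of 20 groups. In BALB/c sham, library 50 was highest for Hspa1a at 14.7 CPM (others 4.195 to 6.66 CPM) and for Hspa1b at 23.9 CPM (others 7.70 to 11.1 CPM). In B10.D2 sham, library 60 was highest for Hspb1 at 126 CPM (others 96.9 to 98.5 CPM) and for the stress-induced Hspa1b at 17.6 CPM (others 7.48 to 9.92 CPM). Hspa1a and Hspa1b share sequence, so their values in library 50 are not independent of each other.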

How the results depend on the processing

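No member was called in BALB/c or B10.D2 SNI against sham in any of the 58 fits of these comparisons, and the strain differences of Hspa8 and Hspb8 in sham were called in every fit. In rat, 1 member was called in the reported fit, 2 with DESeq2, 2 with both intermediate libraries left out (added after seeing the data), and 0 to 2 when each library was left out. With the replicate block on the first number of the rat titles, 1 member was called, and the count over all features moved from 3753 to 2558. Libraries sharing that number did not deviate together (r of -0.29 to 0.05 for the 4 pairs, none of 4 sham libraries closest to its own number), so the numbers were not taken as pairs. Hspa1a and Hspa1b could not be summed in rat, where they are listed at 0. Signs of values near 0 turned: Hspb1 in BALB/c was -0.0008 with DESeq2, -0.0007 with RLE factors and -0.0062 without a filter, Hspb6 in B10.D2 SNI was -0.033 without the sex term, and Cryab in rat was -0.0045 with both intermediate libraries left out. When each library was left out, the log2 values whose sign turned ranged as follows. For BALB/c SNI against sham they were Hspb1 -0.042 to 0.041, Hspb6 -0.070 to 0.39, Cryab -0.029 to 0.16, Hspa1a -0.43 to 0.048 and Hspa1b -0.43 to 0.018. In B10.D2 SNI against sham they were Hspb1 -0.067 to 0.043, Hspb6 -0.14 to 0.091, Cryab -0.0049 to 0.16, Hspa1a -0.18 to 0.030, Hspa1b -0.31 to 0.037 and Hsph1 -0.12 to 0.088. In the test of strain by injury interaction they were Hspb1 -0.072 to 0.038, Hspb6 -0.40 to 0.089, Cryab -0.083 to 0.11, Hspa1a -0.19 to 0.35, Hspa1b -0.26 to 0.36, Hspa8 -0.048 to 0.0068, Hsp90aa1 -0.019 to 0.10 and Dnajb1 -0.038 to 0.18. For B10.D2 against BALB/c in sham they were Hspb1 -0.020 to 0.086, Hspa1a -0.38 to 0.15, Hspa1b -0.37 to 0.23, Hsp90aa1 -0.012 to 0.055 and Dnajb1 -0.097 to 0.11. For B10.D2 against BALB/c in SNI they were Hspb1 -0.025 to 0.062, Hspa1a -0.12 to 0.044, Hspa1b -0.14 to 0.12 and Hsph1 -0.13 to 0.026. Between male and female mice they were Hspa1a -0.15 to 0.15, Hsph1 -0.10 to 0.0092, Hsp90aa1 -0.012 to 0.047 and Dnajb1 -0.073 to 0.035. In rat SNT against sham they were Hspb6 -0.14 to 0.046 and Cryab -0.083 to 0.20. The causes were not tested. Depth limits Hspb6, at 16 to 64 counts per mouse library (0.434 to 1.79 CPM).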

Other observations

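The strain difference of Hspa8 was set beside its neighbours on chromosome 9, chosen after the values were seen. Of the 3 tested protein-coding genes on each side (Scn3b, Gramd1b, Clmp, Jhy, Crtam and Ubash3b), 0 differed between the strains in sham by edgeR (adjusted p of 0.105 to 0.622), with log2 differences of -0.43 to 0.12. In SNI, Clmp (-0.23, adjusted p = 0.049) and Ubash3b (0.20, adjusted p = 0.0129) were called.

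Copies of 2 other members were also read. The Hsp90aa1 copy Gm12346 was at 6.75 ± 0.714 CPM in BALB/c sham and 6.83 ± 0.6002 CPM in B10.D2 sham, and the Hspb1 copy Hsp25-ps1 at 0.574 ± 0.117 and 0.514 ± 0.0865 CPM, with log2 differences of 0.01 and -0.18 (adjusted p = 0.945 and 0.613 by edgeR). Gm26825, a LincRNA annotated opposite Gm15459, was at 1.05 ± 0.284 CPM in BALB/c sham and 0.0337 ± 0.0354 CPM in B10.D2 sham.

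Hspb2, the neighbour that shares 252 exonic bases with Cryab on the opposite strand, held 5.33% as many counts as Cryab over all mouse libraries, and its log2 difference between the strains in sham was -0.29 (adjusted p = 0.155 by edgeR), with the same sign as that of Cryab (-0.23).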
